A study of Homo sapiens with 24 samples.

Results

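The keratin genes were taken as the features of the gene count tables whose symbol is KRT followed by a number and, where present, the letter A, B or C. That rule found 56 of the 57820 annotated genes, with 55 symbols, because KRT222 is annotated at a pair of overlapping gene models. Total RNA was sequenced from the 2 head and neck squamous cell carcinoma lines SAS and Cal33, both labelled as tongue and wild type. Each line had 4 groups of 3 libraries, 24 in all: sham, GSK-J1 at 4.5 µM, a single x-ray dose of 4 Gy, and GSK-J1 with 4 Gy, with RNA taken at 24 h. GSK-J1 inhibits the histone demethylases UTX and JMJD3, which remove methyl groups from lysine 27 of histone H3. Same-strand gene counts summed to between 54200036 and 96848227 per library. Each line is a single tumour-derived culture, so a difference between the lines is a difference between those cultures. The labels do not say whether the 3 replicates were separate cultures, so p-values measure the spread between these libraries, which may be technical.

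Keratins are the intermediate filament proteins of epithelial cells. A filament is built from heterodimers of an acidic type I and a basic type II keratin, so epithelial cells make both types. KRT5 and KRT14 form the pair of the basal layer of stratified epithelia, where KRT15 is a further type I keratin. Cells that leave the basal layer switch to KRT1 and KRT10 in epidermis and to KRT4 and KRT13 in the mucosa of the mouth and oesophagus. KRT8, KRT18, KRT7, KRT19 and KRT20 belong to simple, single-layered epithelia, while KRT6A, KRT6B, KRT6C, KRT16 and KRT17 are induced in stressed, wounded or hyperproliferative epithelium. Hair keratins build the hard structures of the hair shaft, and a further set is found in the sheaths of the hair follicle. The type I genes lie together on chromosome 17 and the type II genes on chromosome 12, together with the type I gene KRT18.

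Of the 56 keratins, 46 averaged 1 count or more over the 24 libraries and entered the tests between the lines. Within lines, 42 were tested in SAS and 46 in Cal33. KRT25 and KRT26, keratins of the hair follicle sheath, had no count in any of the 24 libraries. The cells carried epithelial markers. All 8 genes of that list (DSP, PKP1, DSG3, EPCAM and CDH1 among them) were at 1 CPM (counts scaled to library size) or more in every group. They summed to 2114 to 2319 CPM in sham and GSK-J1 libraries of SAS and to 2584 to 3304 CPM in those of Cal33. Some, such as EPCAM and CDH1, are not particular to squamous epithelium, so the list does not tell it from simple epithelium. Of 5 fibroblast markers 1, COL1A1, reached 1 CPM in both sham groups (31.1 ± 10.7 in Cal33 and 2.13 ± 0.928 in SAS), as did the leukocyte marker CD14 (7.66 ± 1.27 and 18 ± 6.95). COL3A1 and CD3E were at 0 in SAS sham. Both endothelial markers, CDH5 and VWF, were above 1 CPM and summed to 7.42 to 99.0 CPM over the 24 libraries. The part of these markers in the keratin results was not tested, and in bulk RNA fewer cells of a type and less RNA per cell cannot be told apart. In 2 SAS libraries, replicate 1 of GSK-J1 and replicate 1 of GSK-J1 with 4 Gy, 12 genes that SAS sham lacked and Cal33 made were found at 1.42% and 0.763% of their Cal33 level, while the remaining 10 SAS libraries reached no more than 0.0105%. KRT13 was 85.2 and 15.2 CPM in those libraries, where the same shares of its Cal33 level come to 72.0 and 13.6 CPM, and KRT4 was 5.31 and 1.16 CPM. For KRT15, at 230 and 79.8 CPM, those shares come to 123 and 23.6 CPM. Results that rest on those libraries are also given without them where the call or the direction changed.

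RefSeq promoters (GRCh38.p14, the 250 bases before the start) were matched for 34 of the 55 keratin symbols, and the rest are not in the shares below. The letters TATAAA on the strand of the gene, the core of the TATA box, occurred in 18 of the 34 (52.9%) and in 6.80% of 35116 promoters of all genes. GGGCGG, the core of the GC box, occurred on either strand in 4 of the 34 (11.8%) and in 42.6% of all promoters. TGANTCA, the AP-1 site, occurred on either strand in 0 of the 34 and in 6.57% of all. Keratins were counted by symbol, each with its first listed start, and all genes by promoter, where a gene may have several. The shares thus rest on unlike units, and a difference between keratins and all genes was not tested. A match is a run of letters and not a site. The promoters of 4 keratins are shown as examples: the basal keratin KRT5, the simple keratin KRT8, the hair keratin KRT34 and the follicle keratin KRT75. Capitals mark TATAAA in KRT34 and the reverse complement of GGGCGG in KRT75, and neither motif occurs in the windows of KRT5 and KRT8. Each window belongs to the first listed start of its gene. For KRT8 that start need not be the one used in these cells, so the window says nothing about any other start. All 4 genes lie on the minus strand, at chr12:52520395-52520644 (KRT5), chr12:52926470-52926719 (KRT8), chr12:52434372-52434621 (KRT75) and chr17:41382307-41382556 (KRT34), and are written 5′ to 3′ on that strand.
KRT5: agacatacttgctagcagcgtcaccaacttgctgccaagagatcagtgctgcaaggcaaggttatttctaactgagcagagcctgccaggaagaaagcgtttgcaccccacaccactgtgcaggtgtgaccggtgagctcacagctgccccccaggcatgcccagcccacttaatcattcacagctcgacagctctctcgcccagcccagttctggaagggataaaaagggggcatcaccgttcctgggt
KRT8: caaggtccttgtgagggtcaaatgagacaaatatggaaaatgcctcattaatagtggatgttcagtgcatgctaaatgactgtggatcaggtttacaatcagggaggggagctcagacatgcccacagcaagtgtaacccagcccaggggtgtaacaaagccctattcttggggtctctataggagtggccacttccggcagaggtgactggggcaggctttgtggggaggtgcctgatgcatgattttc
KRT75: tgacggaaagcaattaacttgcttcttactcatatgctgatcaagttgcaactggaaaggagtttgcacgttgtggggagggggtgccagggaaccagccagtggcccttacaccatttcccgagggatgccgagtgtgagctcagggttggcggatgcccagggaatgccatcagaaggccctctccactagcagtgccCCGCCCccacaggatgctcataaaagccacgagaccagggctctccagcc
KRT34: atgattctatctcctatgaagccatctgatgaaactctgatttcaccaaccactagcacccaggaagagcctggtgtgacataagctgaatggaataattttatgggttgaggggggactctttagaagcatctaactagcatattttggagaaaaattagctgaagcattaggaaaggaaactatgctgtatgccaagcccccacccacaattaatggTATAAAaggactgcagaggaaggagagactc
In KRT34 the first base of TATAAA is 31 bases before the start.

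In the sham libraries the lines had different keratin profiles. Cal33 led with basal and mucosal keratins and SAS with the keratins of simple epithelia. By deposited TPM (a level scaled to transcript length and library size), the order in SAS was KRT7, KRT18, KRT8, KRT5, KRT19, KRT17 and KRT14, and in Cal33 it was KRT13, KRT15, KRT5, KRT14, KRT6A, KRT8, KRT18 and KRT17. Among all genes, KRT13 ranked 14, KRT15 18 and KRT5 20 in Cal33 sham, and KRT7 ranked 54, KRT18 66 and KRT8 87 in SAS sham. Of the summed keratin TPM of SAS sham, 70.1% ± 2.16 (SD, n = 3) came from the 5 simple keratins, 20.2% ± 2.91 from the 3 basal ones and 0.0230% ± 0.0119 from the 4 mucosal ones. Of that of Cal33 sham, 52.6% ± 1.61 was basal, 35.4% ± 1.66 mucosal, 6.53% ± 0.134 from the 5 stress keratins and 4.86% ± 1.46 simple. Keratins took 2.29% ± 0.632 of all counts in Cal33 sham and 0.919% ± 0.132 in SAS sham.

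**Figure D1:**
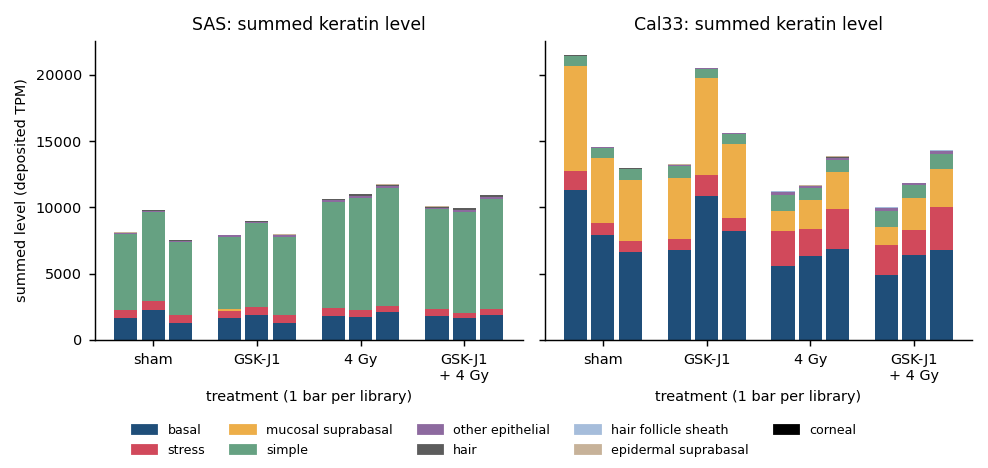
Summed keratin level (deposited TPM, linear axis from 0) in each library, 1 bar per library, stacked by class, for the 4 treatments of SAS (left) and Cal33 (right). Simple keratins fill most of each SAS bar; in Cal33 the mucosal share falls from 33.7% to 37.0% of keratin TPM in sham to 12.9% to 20.2% after 4 Gy.

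Between the sham groups, 33 of the 46 tested keratins passed an adjusted p of 0.05, 22 higher and 11 lower in Cal33. Among those higher, KRT24, KRT27 and KRT38 averaged under 1 count over the SAS libraries and were tested because of their Cal33 counts. For them the test was open only to a higher level in Cal33. The same holds for KRT6C and KRT34, which were also called higher and had no count in SAS sham. KRT20, KRT33A and KRT36, called higher too, averaged 0.3 to 0.7 counts there, which left next to no room for a lower level. Among all genes tested, 54.5% passed, 27.2% higher and 27.2% lower. The median log2 fold change of the tested keratins was 0.80, against 0.02 over all genes. DESeq2 called 33 keratins, where 53.7% of all genes passed, and edgeR with a replicate block 34, where 57.5% did. All 3 basal keratins, 3 of 3 tested mucosal keratins and 4 of 5 stress keratins were higher in Cal33. Of the simple keratins 4 of 5 were lower and KRT20 was higher, at 0.111 ± 0.0916 against 0.00366 ± 0.00634 CPM.

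The basal type I keratin KRT15 was 12226, 8415 and 6193 CPM in the Cal33 sham libraries and 140, 234 and 87.9 CPM in those of SAS. Every Cal33 library was above every SAS library, with a log2 fold change of 5.86 (SE 0.49, edgeR adjusted p = 1.33e-09). KRT5, the type II partner of the basal layer, whose promoter window holds neither TATAAA nor GGGCGG, was 5802, 4616 and 4031 CPM in Cal33 and 1605, 2309 and 1187 CPM in SAS. The difference was smaller, 2.83-fold (log2 fold change 1.5, SE 0.22, adjusted p = 6.36e-06), again without overlap. KRT14 was 974, 356 and 562 CPM in Cal33 and 283, 335 and 255 CPM in SAS. Its groups did not overlap either, but the lowest Cal33 library lay close to the highest SAS library (log2 fold change 1.11, SE 0.31, adjusted p = 0.00394), and the call was lost in at least 1 of the alternatives run.

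Of the tested keratins KRT13, the type I keratin of the suprabasal oral mucosa, had the largest fitted difference between the lines. It was 6913, 4183 and 4135 CPM in Cal33 sham and 1.23, 1.53 and 0.242 CPM in SAS sham. The fitted log2 fold change was 12.36 (SE 1.88, edgeR adjusted p = 8.46e-06). KRT4, its type II partner, was 324, 232 and 55.9 CPM in Cal33 and 1.10, 1.18 and 0.318 CPM in SAS (log2 fold change 7.93, SE 1.19, adjusted p = 7.58e-06). KRT78 was higher too, at 0.419 ± 0.073 against 0.0862 ± 0.0491 CPM. KRT76, the fourth mucosal keratin, had too few counts to be tested. Of the epidermal suprabasal keratins, KRT10 was 18.9, 21.6 and 21.0 CPM in Cal33 and 12.2, 14.1 and 20.8 CPM in SAS, with overlapping groups and no call. KRT1, which pairs with KRT10 in epidermis, was near 0 in both lines, 0.0403 ± 0.0262 CPM in Cal33 and 0.148 ± 0.0735 CPM in SAS (lower in Cal33, adjusted p = 0.0489, a call lost in 9 of the 16 alternatives run).

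Stress keratins split. KRT6A was 706, 560 and 510 CPM in Cal33 and 7.57, 9.86 and 6.64 CPM in SAS, 73.9-fold higher (log2 fold change 6.21, SE 0.39, edgeR adjusted p = 1.27e-11). KRT16, the type I partner of the KRT6 proteins, was 76.6, 34.9 and 43.9 CPM against 1.26, 1.29 and 1.68 CPM (log2 fold change 5.18, SE 0.35, adjusted p = 4.69e-11). KRT6B was higher as well, at 4.94 ± 2.7 against 0.185 ± 0.155 CPM, and KRT6C, with 10 to 32 counts in Cal33 and none in SAS, was at least 5.98-fold higher against a floor of 3 counts per library. KRT17 went the other way, at 424, 220 and 165 CPM in Cal33 and 503, 561 and 465 CPM in SAS. It was 1.89-fold lower in Cal33 (log2 fold change -0.92, SE 0.31, adjusted p = 0.0157), and that call did not hold in every alternative run. Within a line stress keratins were far apart: SAS made KRT17 at 510 ± 48.2 CPM and KRT6A at 8.03 ± 1.66 CPM, a TPM ratio of KRT6A to KRT17 of 0.0135, against 2.11 in Cal33.

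Simple keratins other than KRT20 were lower in Cal33. KRT7, a type II keratin of glandular and simple epithelia, was 2480, 2700 and 2756 CPM in SAS sham and 6.42, 6.63 and 7.33 CPM in Cal33 sham, 389-fold lower in Cal33 (log2 fold change -8.60, SE 0.30, edgeR adjusted p = 1.03e-15). KRT19, which has no tail domain and pairs with several type II keratins, was 504, 804 and 480 CPM in SAS and 6.38, 4.22 and 3.24 CPM in Cal33 (log2 fold change -7.02, SE 0.33, adjusted p = 1.53e-13). KRT8 and KRT18, the pair of simple epithelia, differed less. KRT8 was 2056, 2481 and 1726 CPM in SAS and 642, 544 and 603 CPM in Cal33 (log2 fold change -1.81, SE 0.15, adjusted p = 1.47e-09). KRT18 was 1786, 1978 and 1467 CPM in SAS and 308, 332 and 427 CPM in Cal33 (log2 fold change -2.29, SE 0.18, adjusted p = 4.85e-10). None of these 4 genes had overlapping groups, and each call held in every alternative run.

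**Figure D2:**
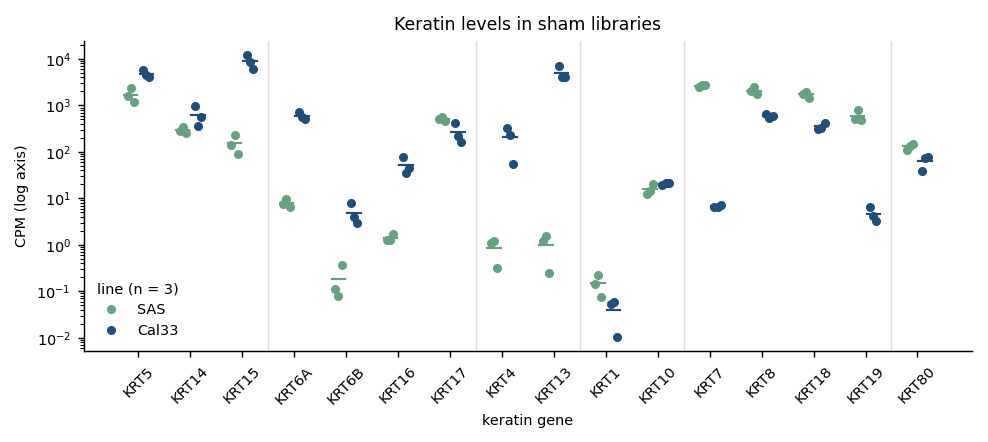
Level (CPM, log axis) of 16 keratins in the sham libraries, 1 point per library (n = 3 per line) with a line at the mean, ordered as basal, stress, mucosal, epidermal suprabasal and simple keratins and KRT80. KRT13 lies at 4135 to 6913 CPM in Cal33 against 0.242 to 1.53 CPM in SAS, and KRT7 shows the opposite order.

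Among the remaining keratins, 7 of 15 tested hair keratins were higher and 2 were lower in Cal33, 60% against the 54.5% of all genes, and all 3 tested sheath keratins (KRT75, KRT74 and KRT27) were higher. The hair keratin KRT38 and the sheath keratin KRT27 were tested only because of their Cal33 counts. The hair keratins KRT33A, KRT34 and KRT36 were at or near 0 in SAS sham and could hardly be called lower in Cal33. The calls of KRT27 and of the hair keratins KRT36 and KRT83 were lost in at least 1 of the alternatives run. Nearly all were at low levels: the highest of those higher in Cal33 were KRT75 at 1.24 ± 1.03 CPM and KRT74 at 1.23 ± 0.383 CPM. KRT81, a type II hair keratin, was the exception in SAS, at 15.2 ± 5.12 CPM against 0.657 ± 0.549 CPM in Cal33 (log2 fold change -4.47, SE 0.85, edgeR adjusted p = 0.000124). KRT24, a type I keratin, had 26 to 69 counts in Cal33 sham and none in SAS sham, at least 12.7-fold higher. KRT34 and KRT38, with 3 to 6 and 2 to 15 counts in Cal33 and none in SAS, were at least 1.23-fold and 2.40-fold higher. KRT80, a type II keratin of differentiating epithelia, was lower in Cal33, at 64.6 ± 22.3 against 131 ± 17.2 CPM, as were KRT23 (0.615 ± 0.236 against 6.38 ± 0.931 CPM), KRT79 and KRT83.

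In SAS the simple pair KRT8 and KRT18, the stress keratins KRT6A, KRT6B and KRT16 and the hair keratin KRT81 were among those that rose after 4 Gy, while the stress keratin KRT17 fell. Against sham, 14 of the 42 tested keratins rose and 1, KRT17, fell, where 7.08% of all genes tested passed (3.63% higher and 3.45% lower). The median log2 fold change was 0.66 over the tested keratins and -0.02 over all genes. By class, 4 of 5 stress keratins, 3 of 5 simple keratins, 3 of 13 hair keratins, 2 of 5 other epithelial keratins, 1 of 3 basal keratins and KRT9 rose, and none of the 3 tested mucosal keratins was called.

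The most abundant of these were the simple pair. KRT8 was 3442, 3640 and 3501 CPM after 4 Gy, against the sham values of 2056, 2481 and 1726 CPM. It rose 1.69-fold (log2 fold change 0.75, SE 0.12, edgeR adjusted p = 0.0041). KRT18 was 2822, 2889 and 2990 CPM after 4 Gy and rose 1.66-fold (log2 fold change 0.73, SE 0.11, adjusted p = 0.00219). Both partners moved by nearly the same factor, and the TPM ratio of KRT8 to KRT18 was 0.768 ± 0.0344 in sham and 0.782 ± 0.0288 after 4 Gy. KRT7, at 2817, 3113 and 3406 CPM after 4 Gy, was above every sham library but not called (log2 fold change 0.23, SE 0.12, adjusted p = 0.269). KRT19 was not called (538 ± 54.4 against 596 ± 180 CPM), and KRT20 rose from 0.00366 ± 0.00634 to 0.0909 ± 0.0414 CPM, a call that was lost in at least 1 alternative.

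Stress keratins of SAS again did not move as 1 group. KRT6A was 39.8, 26.3 and 40.4 CPM after 4 Gy against 7.57, 9.86 and 6.64 CPM in sham, and rose 4.43-fold (log2 fold change 2.15, SE 0.35, edgeR adjusted p = 0.0037). KRT6B was 1.36, 0.901 and 1.18 CPM against 0.112, 0.0799 and 0.362 CPM (log2 fold change 2.54, SE 0.47, adjusted p = 0.00749). KRT16 was 4.85, 4.12 and 3.96 CPM against 1.26, 1.29 and 1.68 CPM (log2 fold change 1.6, SE 0.19, adjusted p = 0.000797). In contrast KRT17, by far the most abundant stress keratin of SAS, fell, from 503, 561 and 465 CPM to 387, 366 and 354 CPM (log2 fold change -0.47, SE 0.08, adjusted p = 0.00679). Their summed TPM was 608 to 709 in sham and 497 to 552 after 4 Gy. KRT6C had no count in the sham libraries and 7, 1 and 5 counts after 4 Gy.

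Of the basal keratins, KRT14 rose from 283, 335 and 255 CPM to 551, 430 and 531 CPM (log2 fold change 0.79, SE 0.13, edgeR adjusted p = 0.00366). KRT5 (1341, 1476 and 1672 CPM after 4 Gy) and KRT15 (72.8, 109 and 77.8 CPM) overlapped their sham groups and were not called. The TPM ratio of KRT5 to KRT14 was 2.47 to 3.66 in sham and 1.29 to 1.83 after 4 Gy. Among the hair keratins KRT81 was 64.5, 88.5 and 67.0 CPM after 4 Gy against 9.61, 19.6 and 16.5 CPM in sham, a 4.79-fold rise (log2 fold change 2.26, SE 0.31, adjusted p = 0.00154). KRT86, whose annotated span holds KRT81 on the opposite strand, rose from 1.66 ± 0.353 to 3.58 ± 0.359 CPM. KRT34, a type I hair keratin, had no count in any sham library and 16, 19 and 17 counts after 4 Gy, at least 6.33-fold higher against a floor of 3 counts per library. KRT23 (from 6.38 ± 0.931 to 16.3 ± 5.61 CPM), KRT9 (from 0.418 ± 0.0812 to 1.36 ± 0.212 CPM) and KRT79 (from 1.19 ± 0.11 to 1.78 ± 0.243 CPM) also rose.

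In SAS, libraries with the same replicate number deviated together, and with the replicate number as a block in the fit 19 keratins passed, 17 higher and 2 lower, where 24.5% of all genes did. That fit added KRT7, KRT33B and KRT80 to the keratins that rose and KRT74 to those that fell. Of the 15 calls, 12 held in every alternative run, and KRT6C, KRT79 and KRT20 did not.

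In Cal33 both leading type I keratins fell after 4 Gy, while KRT80, KRT6A and several weaker keratins rose. Of the 46 tested, 8 rose and 4 fell, where 6.27% of all genes passed (3.47% higher and 2.81% lower). The median log2 fold change was 0.56 over the tested keratins and 0.01 over all genes. By class, 1 of 3 tested mucosal and 1 of 3 basal keratins fell, 3 of 5 stress keratins rose, and KRT80, KRT7, KRT75, KRT34 and KRT23 rose from lower levels.

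KRT13 was 1247, 1636 and 2202 CPM after 4 Gy against 6913, 4183 and 4135 CPM in sham, with no overlap, and fell 2.96-fold (log2 fold change -1.56, SE 0.27, edgeR adjusted p = 0.00813). KRT15 was 2007, 3843 and 3030 CPM against 12226, 8415 and 6193 CPM, and fell 2.99-fold (log2 fold change -1.58, SE 0.32, adjusted p = 0.0152). The type II keratins KRT5 and KRT4 of the same layers were not called, nor was KRT14, the other basal type I keratin. KRT5 was 3842, 4186 and 5148 CPM after 4 Gy (log2 fold change -0.12, SE 0.19, adjusted p = 0.76), and KRT14 was 1132, 600 and 867 CPM (log2 fold change 0.48, SE 0.37, adjusted p = 0.482). KRT4 ranged widely within both groups, at 31.2, 117 and 222 CPM after 4 Gy against 324, 232 and 55.9 CPM (log2 fold change -0.71, SE 0.84, adjusted p = 0.666). The TPM ratio of KRT5 to KRT15 was 0.782 to 1.07 in sham and 1.79 to 3.15 after 4 Gy, and KRT5 took the first place among keratins by TPM, ahead of KRT13 and KRT15.

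With KRT13 and KRT15 lower, the summed TPM of type I keratins was 8882 to 15578 in Cal33 sham and 6022 to 7176 after 4 Gy, while that of type II keratins was 4087 to 5914 and 5213 to 6669. The ratio of type II to type I TPM was 0.380 to 0.489 in Cal33 sham and 0.855 to 0.929 after 4 Gy. In SAS it was 1.27 to 1.36 in sham and 1.18 to 1.29 after 4 Gy. These ratios and sums are descriptions with no test. The deposited TPM divides by the union of all annotated exons, which counts long rare exons in full and lowers the level of a gene such as KRT15 relative to the others.

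**Figure D3:**
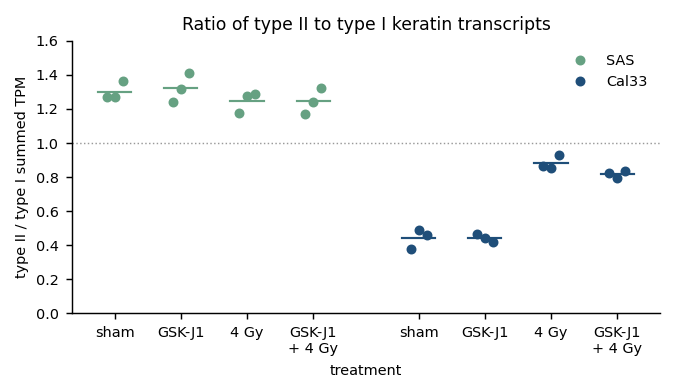
Ratio of summed type II to summed type I keratin TPM (no unit, axis from 0) in each library, 1 point per library with a line at the mean (n = 3), for the 4 treatments of SAS and Cal33; the dotted line marks equal levels. All 6 unirradiated Cal33 libraries lie at 0.380 to 0.489 and all 6 irradiated ones at 0.793 to 0.929, whereas every SAS library lies above 1.

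Of the 5 stress keratins 3 rose in Cal33, and the calls of KRT6A and KRT6C were lost in at least 1 of the alternatives run. KRT6A was 1239, 966 and 1468 CPM after 4 Gy against 706, 560 and 510 CPM in sham (log2 fold change 1.06, SE 0.24, edgeR adjusted p = 0.0236). KRT6B was 35.6, 18.6 and 28.1 CPM against 8.01, 3.87 and 2.94 CPM (log2 fold change 2.49, SE 0.44, adjusted p = 0.00856), and KRT6C rose from 0.257 ± 0.161 to 1.04 ± 0.485 CPM. KRT16, at 139, 77.0 and 99.4 CPM after 4 Gy, and KRT17, at 789, 494 and 844 CPM, were above every sham library but missed the threshold. For KRT17 the log2 fold change was 1.41 (SE 0.40, adjusted p = 0.0541) and for KRT16 1.04 (SE 0.34, adjusted p = 0.0878). The 5 stress keratins summed to 828 to 1427 TPM in sham and 2016 to 3021 TPM after 4 Gy, 6.53% ± 0.134 and 21.0% ± 3.36 of keratin TPM.

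KRT80 was 242, 207 and 216 CPM after 4 Gy against 38.9, 75.6 and 79.3 CPM in sham and rose 3.46-fold (log2 fold change 1.79, SE 0.33, edgeR adjusted p = 0.00977). KRT75, a type II keratin of the companion layer of the hair follicle, was 18.5, 7.02 and 27.2 CPM against 1.39, 2.20 and 0.143 CPM, with a wide spread in both groups (log2 fold change 3.85, SE 0.90, adjusted p = 0.0272). KRT7 rose from 6.42, 6.63 and 7.33 CPM to 21.7, 11.5 and 13 CPM (log2 fold change 1.19, SE 0.27, adjusted p = 0.0239). KRT8 was 751, 501 and 556 CPM after 4 Gy and overlapped sham (log2 fold change 0.03, SE 0.15, adjusted p = 0.934). KRT18, at 713, 497 and 497 CPM, lay above every sham library and was not called (log2 fold change 0.69, SE 0.20, adjusted p = 0.0574). The TPM ratio of KRT8 to KRT18 was 0.907 to 1.34 in Cal33 sham and 0.649 to 0.719 after 4 Gy. KRT34, 1 of 18 keratins with TATAAA in the promoter window, went from 3, 4 and 6 counts to 63, 13 and 35 counts (log2 fold change 3.07, SE 0.62, edgeR adjusted p = 0.0142). Among the weakest keratins, KRT74 fell from 1.23 ± 0.383 to 0.566 ± 0.00962 CPM and KRT32 from 0.888 ± 0.275 to 0.345 ± 0.137 CPM.

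The number of calls in Cal33 depended on single libraries. It was 12 with all libraries, 3 without replicate 1 of 4 Gy, and 6 without replicate 3 of 4 Gy, replicate 1 of sham or replicate 3 of sham. KRT80, KRT6B and KRT13 were called in every alternative run, and the other 9 were not.

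**Figure D4:**
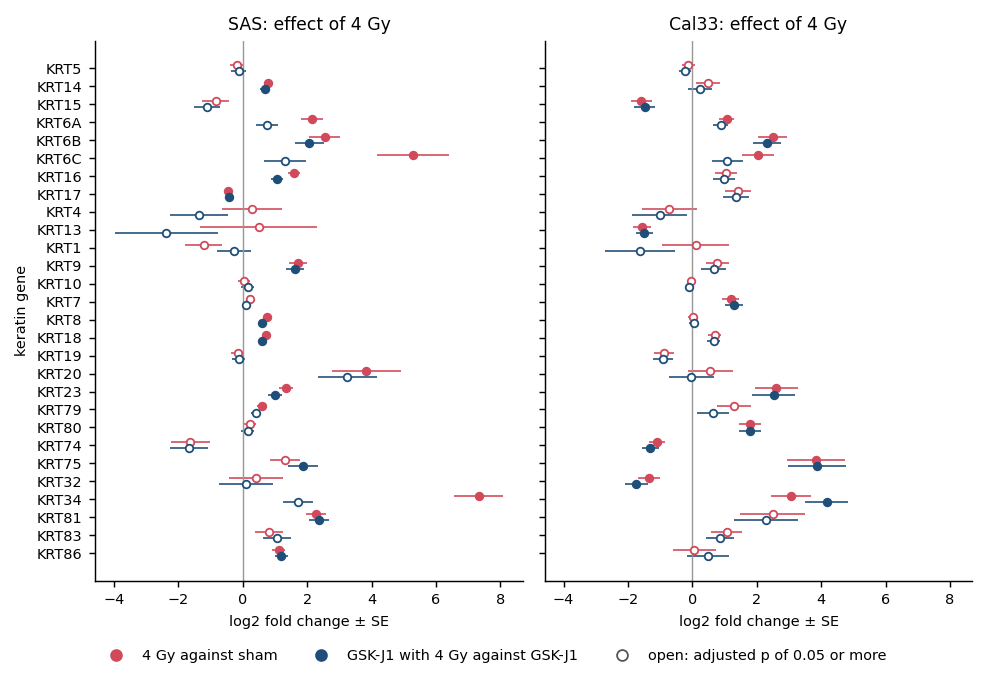
Effect of 4 Gy on 28 keratins as log2 fold change ± SE from edgeR (n = 3 against 3), without GSK-J1 (red) and with it (blue), in SAS (left) and Cal33 (right); filled points passed an adjusted p of 0.05. KRT13 and KRT15 lie at -1.58 to -1.48 in Cal33, and KRT17 lies at -0.47 and -0.43 in SAS; the points of KRT34 and KRT6C in SAS against sham rest on a group with no counts and are no measure of size.

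Irradiation in the presence of GSK-J1 was compared with GSK-J1 alone, in libraries that the comparison with sham did not use, although 1 estimate of the spread was shared by the 12 libraries of a line. The comparisons are not independent. In SAS, same-numbered libraries with and without GSK-J1 deviated together, with lowest correlations of 0.71 unirradiated and 0.581 irradiated. In Cal33 the irradiated ones did (0.741). In SAS, 10 of 42 tested keratins rose and KRT17 fell, where 4.42% of all genes passed (2.43% higher and 1.99% lower), and the median log2 fold change was 0.56 against 0.00 over all genes. Of the 11 calls, 10 (90.9%) were also among the 15 made against sham, in the same direction, which is 66.7% of those 15. The overlap of calls over all genes is not given here, so this is no result about keratins in particular. KRT81 rose from 6.32, 16.2 and 13.5 to 57.0, 73.8 and 55.9 CPM (log2 fold change 2.37, SE 0.31, edgeR adjusted p = 0.00204). KRT8 rose from 2063 ± 284 to 3165 ± 40.6 CPM (log2 fold change 0.61), KRT18 from 1817 ± 193 to 2740 ± 42.0 CPM (0.59), KRT14 from 292 ± 12.3 to 470 ± 58.9 CPM (0.68) and KRT16 from 1.83 ± 0.341 to 3.82 ± 0.614 CPM (1.06). KRT17 fell from 414, 457 and 444 to 324, 311 and 341 CPM (log2 fold change -0.43, SE 0.08, adjusted p = 0.0137). KRT6A was above every GSK-J1 library after irradiation but not called (28.7 ± 1.93 against 17.1 ± 9.11 CPM, adjusted p = 0.22).

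That SAS count changed with the libraries that hold Cal33 transcripts and with the block. Without those 2 libraries, which leaves 2 libraries a group, KRT81 was the 1 keratin that passed, where 0.414% of all genes did. With the replicate block, 17 passed, 14 higher and 3 lower (21.5% of all genes). With the block and without those libraries 10 passed, 9 higher and 1 lower (10% of all genes). Leaving out replicate 2 or replicate 3 of GSK-J1 with 4 Gy, or replicate 1 of GSK-J1, left 7.

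In Cal33, 6 of 46 tested keratins rose and 4 fell with GSK-J1 present, where 5.11% of all genes passed (3.04% higher and 2.07% lower), and the median log2 fold change was 0.51 against 0.02 over all genes. All 10 were also among the 12 called against sham, in the same direction, which is 83.3% of those 12. Here too the overlap over all genes is not given. KRT13 was 4226, 6292 and 4700 CPM with GSK-J1 and 1254, 1850 and 2254 CPM with GSK-J1 and 4 Gy (log2 fold change -1.49, SE 0.27, edgeR adjusted p = 0.0111). KRT15 was 6207, 10553 and 9326 CPM and 1995, 4112 and 3164 CPM (log2 fold change -1.48, SE 0.32, adjusted p = 0.0222). KRT80 rose from 102, 36.7 and 73.7 CPM to 262, 188 and 275 CPM (log2 fold change 1.79, SE 0.33, adjusted p = 0.0108). KRT6B, KRT7, KRT75, KRT23 and KRT34 rose, and KRT74 and KRT32 fell. KRT6A was not called, at 1125 ± 257 against 618 ± 209 CPM (adjusted p = 0.051). Same-numbered Cal33 libraries deviated together in this comparison, and with the block 12 keratins passed (8.67% of all genes), adding KRT18 and KRT6A. With the block and only the 6 libraries compared, 20 passed, 14 higher and 6 lower, where 18.4% of all genes did. Leaving out replicate 1 or 3 of GSK-J1 with 4 Gy, or replicate 2 or 3 of GSK-J1, left 4. KRT80 and KRT34 passed in every alternative run.

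**Figure D5:**
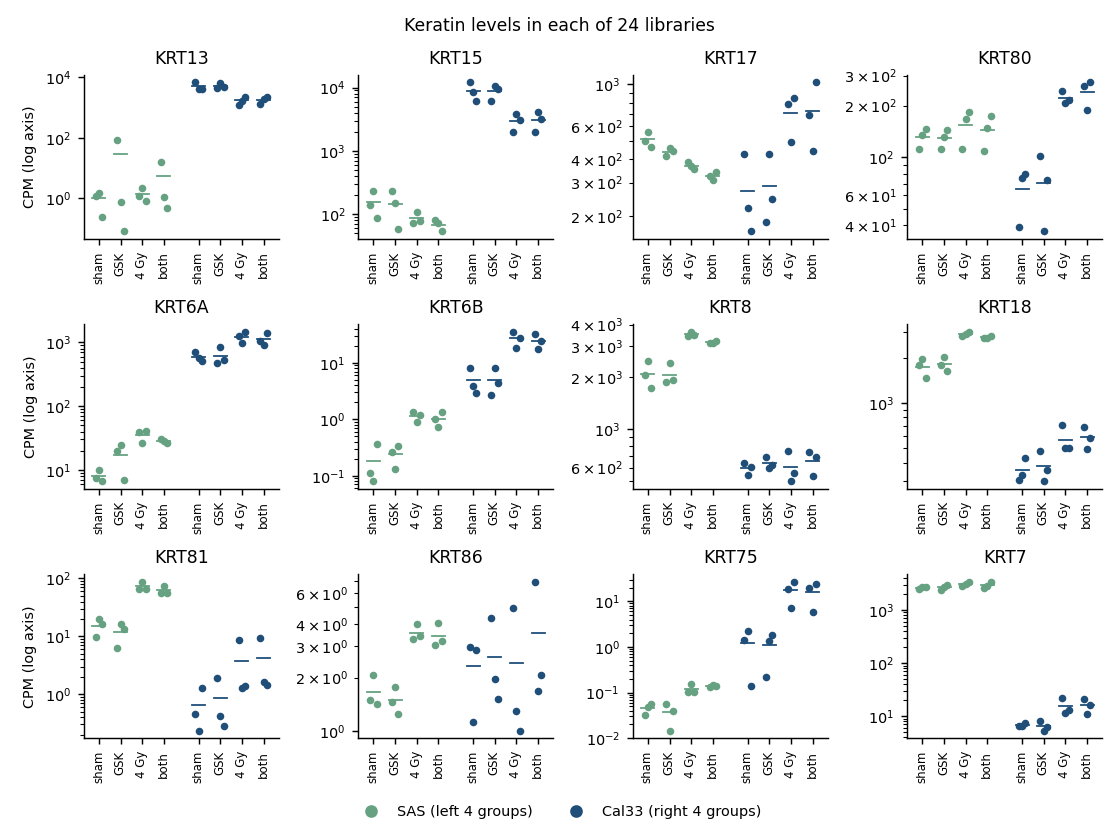
Level (CPM, log axes with a range of their own) of 12 keratins in each of the 24 libraries, 1 point per library with a line at the group mean (n = 3), for sham, GSK-J1, 4 Gy and both in SAS (green) and Cal33 (blue). KRT13 and KRT15 are lower in irradiated Cal33 libraries with and without GSK-J1, and the SAS library at 85.2 CPM of KRT13 is replicate 1 of GSK-J1, one of those with Cal33 transcripts.

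No keratin passed for GSK-J1 itself. Against sham, 0 of 42 passed in SAS and 0 of 46 in Cal33, and with 4 Gy against 4 Gy alone 0 passed in either line. Over all genes 0% passed in each of these 4 comparisons with edgeR. At an unadjusted p under 0.05 there were 5 keratins in SAS and 0 in Cal33 against sham, and 2 and 0 against 4 Gy, out of 486, 215, 438 and 244 genes. Without the 2 SAS libraries with Cal33 transcripts there were 3 in SAS against sham, out of 488 genes, and 1 against 4 Gy, out of 410. DESeq2 called no keratin in these comparisons either.

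The levels under GSK-J1 lay close to sham for the abundant keratins. In Cal33, KRT13 averaged 5072 ± 1082 CPM against 5077 ± 1590 CPM and KRT15 8695 ± 2240 against 8945 ± 3051 CPM, with log2 fold changes of 0.00 (SE 0.27) and -0.03 (SE 0.32). In SAS, KRT8 averaged 2063 ± 284 against 2088 ± 379 CPM and KRT7 2714 ± 301 against 2645 ± 146 CPM, with log2 fold changes of -0.02 (SE 0.12) and 0.03 (SE 0.12). KRT6A in SAS was 19.5, 24.8 and 7.06 CPM against 7.57, 9.86 and 6.64 CPM (log2 fold change 1.09, SE 0.34, edgeR adjusted p = 1). Replicate 3 of GSK-J1 was close to the sham libraries, and in replicate 1 the share of Cal33 transcripts would bring 8.78 of the 19.5 CPM. Without the 2 libraries with Cal33 transcripts the log2 fold change was 0.99 (adjusted p = 1). KRT34 and KRT6C had smaller p, from 2 or 3 counts in each SAS GSK-J1 library and none in sham. In Cal33 the smallest p belonged to KRT78, at 0.270 ± 0.0290 against 0.419 ± 0.0730 CPM, KRT84 and KRT79. With 4 Gy, they belonged to KRT34, KRT17 and KRT39 in SAS, with KRT17 at 325 ± 15.1 against 369 ± 16.9 CPM, and to KRT33B, KRT2 and KRT6C in Cal33, all with an adjusted p of 1.

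Same-numbered libraries paired in both SAS comparisons and, in Cal33, in that against 4 Gy alone. With the block in the fit of all 12 libraries 0 keratins passed in these comparisons, and a fit with the block and only the 6 libraries compared changed the calls. In SAS against sham it called 5 keratins where 2.59% of all genes passed: KRT6A higher (log2 fold change 0.96), KRT13 higher (3.82), and KRT19 (-0.25), KRT81 (-0.37) and KRT17 (-0.21) lower. In SAS with 4 Gy against 4 Gy alone it called 7, where 7.98% of all genes passed. KRT19, KRT81, KRT15, KRT17, KRT8 and KRT6A were lower there, by 0.16 to 0.35 on the log2 scale, and KRT13 was higher. In Cal33 with 4 Gy it called KRT86 higher (0.60) and KRT4 lower (-0.26), where 0.515% of all genes passed. The direction of KRT13 in SAS turned without the libraries with Cal33 transcripts. Its other values were 0.746 and 0.0801 CPM with GSK-J1 against 1.23, 1.53 and 0.242 CPM in sham, and without those libraries the same fit, which then has 1 residual degree of freedom, gave -1.14 against sham and -0.91 against 4 Gy alone. KRT6A kept its directions there, at 0.74 against sham and -0.25 against 4 Gy alone.

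Whether the lines responded differently was tested as the difference of their effects, Cal33 minus SAS. For 4 Gy against sham, 0 of 46 keratins passed, where 0.427% of all genes did (0.285% higher and 0.142% lower). With GSK-J1 present 0 of 46 passed, where 0.232% did (0.167% higher and 0.065% lower), both with edgeR. At an unadjusted p under 0.05 there were 11 and 8 keratins, and 10% and 9.89% of all genes. Without the 2 SAS libraries with Cal33 transcripts, 0 keratins passed in either, with 10 and 6 at an unadjusted p under 0.05, where 0.247% and 0.0365% of all genes passed. With all libraries, in both comparisons the smallest p among keratins belonged to KRT17, which was lower in every irradiated SAS library than in every unirradiated one of the same pair of groups and higher in every irradiated Cal33 library. Its difference was 1.86 on the log2 scale without GSK-J1 (SE 0.44, edgeR adjusted p = 0.0621) and 1.76 with it (SE 0.44, adjusted p = 0.0972). KRT80 followed, at 1.54 (SE 0.41, adjusted p = 0.106) and 1.61 (SE 0.41, adjusted p = 0.103). Without those 2 libraries the difference with GSK-J1 was 1.78 for KRT17 (adjusted p = 0.308) and 1.53 for KRT80 (adjusted p = 0.325). KRT8 differed by -0.74 (SE 0.21, adjusted p = 0.133) without GSK-J1, and KRT7 by 1.16 (SE 0.30, adjusted p = 0.116) with it, or 1.14 (adjusted p = 0.338) without those libraries. These calls depended on the test. DESeq2 passed KRT17 (adjusted p = 0.0058 and 0.0107) and KRT80 (0.0171 and 0.0107) in both, KRT8 in the first and KRT7 in the second, where 1.78% and 1.62% of all genes passed. With the replicate block, under which 1.07% and 0.996% of all genes passed, edgeR passed KRT17 in the first (adjusted p = 0.0485) and KRT80 in the second (0.0484). KRT17 also passed in the first without replicate 2 of Cal33 4 Gy or replicate 1 of Cal33 sham, and in the second without replicate 2 of either Cal33 group, where KRT7 passed as well without replicate 2 of GSK-J1 with 4 Gy. KRT80 passed in the second without replicate 1 of Cal33 GSK-J1. For GSK-J1 itself no keratin passed the test of the line difference, and 0% of all genes did.

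Keratins called in both lines after 4 Gy against sham were KRT6A, KRT6B, KRT6C, KRT23 and KRT34, all of them higher, 33.3% of the 15 calls in SAS and 41.7% of the 12 in Cal33. The share of all genes called in both lines is not given here. KRT13 and KRT15 fell in Cal33, where they led. In SAS, KRT15 had a log2 fold change of -0.84 (SE 0.41, edgeR adjusted p = 0.242) and KRT13, at 1.00 ± 0.676 CPM in sham, one of 0.49 (SE 1.82). The p of the difference between lines did not fall under 0.05, even unadjusted, for either gene with all libraries; without the 2 SAS libraries with Cal33 transcripts that of KRT13 was 0.00792 (adjusted p = 0.281).

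Some keratin values share reads or positions with a neighbour. Of the 100-base windows of their transcripts, 18.2% of those of KRT6A, 24.6% of KRT6B, 31.7% of KRT6C, 30.3% of KRT81 and 28.0% of KRT86 also occur in another transcript, so reads of these genes could be split or left out in counting, and the share was 7.18% for KRT16, 5.95% for KRT14 and 0.288% for KRT17. KRT8 (hs37d5 chromosome 12, 53290977 to 53343738) overlaps KRT18 (53342655 to 53346685) on the opposite strand, and the counts used here are same-strand counts. Without strand, KRT18 kept 60.1% of its counts in SAS sham and KRT13 (chromosome 17, 39657233 to 39661957) 77.4% in Cal33 sham. KRT7 (chromosome 12, 52626304 to 52645970) overlaps the annotated span of KRT86 on the same strand, and KRT17 (chromosome 17, 39775689 to 39781094) overlaps that of JUP on the same strand from 39775692 on. KRT81 lies inside the span of KRT86 on the opposite strand, and 25.4% of the KRT86 windows occur in KRT81. The part of KRT81 reads in the KRT86 counts was not tested. KRT80 (chromosome 12, 52562780 to 52585784) and KRT15 (chromosome 17, 39669995 to 39678781) have no overlapping gene and no shared window.

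Other genes of the keratin network were read from lists of filament anchors, of transcription factors of keratinocyte identity and of intermediate filaments other than keratins. In sham, 10 of 18 anchors were higher and 2 lower in Cal33, 66.7% against 54.5% of all genes. DSC1, a desmosomal cadherin of upper layers, was 0.472 ± 0.0511 against 0.0450 ± 0.0117 CPM, DSG1 was near 0 in Cal33 and at 0 in SAS, and DST, a hemidesmosomal linker, was 76.3 ± 5.80 against 187 ± 18 CPM. The better expressed PKP1, a desmosomal plaque protein chosen after its values were seen, was 463 ± 99.8 against 120 ± 23.0 CPM. Of 19 regulators 7 were higher and 2 lower in Cal33 (47.4%, below the share of all genes), with SOX2 at 68.4 ± 17.6 against 1.07 ± 0.518 CPM and OVOL1 at 3.75 ± 0.156 against 21.8 ± 2.53 CPM. Of 11 other filaments 4 were higher and 4 lower (72.7%), with SYNM at 15.6 ± 6.53 against 3.64 ± 0.682 CPM. VIM, vimentin of mesenchymal cells, was low in both lines, at 0.0989 ± 0.0521 CPM in Cal33 and 3.00 ± 0.247 CPM in SAS.

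After 4 Gy against sham, where 7.08% of all genes passed in SAS and 6.27% in Cal33, 2 of 17 anchors fell in SAS (DSC3 from 120 ± 12.6 to 63.9 ± 3.75 CPM, and DSC2), and 1 of 18 rose in Cal33 (COL17A1, a hemidesmosomal collagen, from 343 ± 62.1 to 555 ± 74.5 CPM), 11.8% and 5.56%. Of 19 regulators, 3 rose and 3 fell in SAS, where GRHL3, a factor of epidermal barrier formation, rose from 5.81 ± 2.48 to 17.6 ± 4.39 CPM and SOX2 fell from 1.07 ± 0.518 to 0.299 ± 0.0715 CPM. In Cal33, 2 rose and 2 fell. KLF4, a factor of suprabasal differentiation, rose from 46.9 ± 12 to 137 ± 45.6 CPM (log2 fold change 1.56, SE 0.29, edgeR adjusted p = 0.0103), and SOX2 fell from 68.4 ± 17.6 to 27.8 ± 10.3 CPM. VIM rose in Cal33 from 0.0989 ± 0.0521 to 1.48 ± 0.244 CPM (log2 fold change 3.93, SE 0.35, adjusted p = 0.000327), and NEFL, a neurofilament chain, rose in SAS from 2.05 ± 0.875 to 7.90 ± 4.57 CPM. Under GSK-J1, KLF4, OVOL1 and VIM rose with 4 Gy in Cal33, and GRHL3, OVOL1, PRDM1 and NEFL in SAS, where DSC3 fell. Of these SAS calls PRDM1 alone was made without the 2 libraries with Cal33 transcripts (edgeR adjusted p = 0.0191), and the directions of the others were the same. None of these genes was called for GSK-J1 alone in either line.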

How the data were processed

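Total RNA of 24 libraries was sequenced from stranded libraries. The authors aligned the reads to hs37d5 and counted them per gene; tools in the submitters' processing notes are STAR 2.5.3a, Subread 1.5.1 with featureCounts, SAMtools 1.6 and DESeq2. The authors deposited, per library, gene counts for each strand setting and TPM values from the exonic length. Same-strand counts were used as deposited for all tests, and deposited TPM for levels between genes; other columns were not used, other than the counts without strand and on the opposite strand as a check. All features name a gene.

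CPM were computed from those counts with TMM factors over all 24 libraries. Tests used edgeR 4.0.16 (quasi-likelihood) in R 4.3.3 over every gene that averaged 1 count or more in the libraries fitted: 24597 for both lines, 23416 for SAS and 24351 for Cal33. Comparisons within a line were fitted on its 12 libraries, and those between lines on all 24. Calls used p-values adjusted by Benjamini-Hochberg, with a threshold of 0.05; the SE was the log2 fold change divided by the square root of F. DESeq2 1.42.0, another normalization, no count filter, a replicate block, fits on the 6 libraries compared, leaving out libraries and leaving out the 2 SAS libraries with Cal33 transcripts were alternatives. The last, combined with a block, was chosen after seeing the data. The test steps were checked on simulated data.

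Replicate numbers were taken to pair libraries where same-numbered libraries deviated from their group means with a correlation over 0.1 in every pair. The lowest correlations were 0.361, 0.494, 0.71 and 0.581 in the SAS comparisons (4 Gy against sham, the same with GSK-J1, GSK-J1 against sham, and the same with 4 Gy). In Cal33 they were -0.568, 0.162, -0.59 and 0.741 in that order, and -0.125 between the sham groups. The pairing comes from the data only.

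The keratins, their classes and the other gene lists were chosen with earlier results of these data known. Keratins named with statistics are those called and the textbook members of each class. Sequences were read from RefSeq tables; coordinates of genes are those of the deposited tables. Python 3.11.15, pandas 2.3.3 and matplotlib 3.10.9 were used. 1 marker gene is not reported here.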

Additional observations from a re-analysis of the deposited data

Results flagged for a closer look

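After 4 Gy KRT17 was lower in every irradiated SAS library and higher in every irradiated Cal33 library, with no overlap of groups in either line. The fall in SAS was called and the difference in Cal33 was not (log2 fold change 1.41, edgeR adjusted p = 0.0541, against sham). The difference of the effects, Cal33 minus SAS, was 1.86 on the log2 scale against sham (edgeR adjusted p = 0.0621) and 1.76 in the presence of GSK-J1 (adjusted p = 0.0972), so the test of the difference missed the threshold in both. KRT17 was 465 to 561 CPM in SAS sham and 354 to 387 CPM after 4 Gy, and 165 to 424 CPM in Cal33 sham and 494 to 844 CPM after 4 Gy. It overlaps JUP on the same strand over nearly its whole span, and the part of that overlap in the counts was not tested.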

How the results depend on the processing

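Of 81 called keratin effects, 737 of 772 values under the planned and added alternatives other than leaving out 1 library kept their direction and call, 35 lost the call and 0 turned; leaving out 1 library kept 378 of 486 and lost 108. For the effect of 4 Gy with GSK-J1 in SAS (11 calls) the count was 17 with the replicate block (21.5% of all genes). It was 1 without the 2 libraries with Cal33 transcripts (0.414%). In Cal33 (10 calls) it was 17 with DESeq2 (10.1%) and 20 with the block and only the 6 libraries compared (18.4%). In the latter fit GSK-J1 against sham in SAS gave 5 calls in place of 0 (2.59% of all genes). There GSK-J1 with 4 Gy against 4 Gy gave 7 in SAS (7.98%) and 2 in Cal33 (0.515%). Without the libraries with Cal33 transcripts, chosen after seeing the data, the SAS counts were 5 and 7 (1.67% and 3.41%). That fit has 1 residual degree of freedom. The cause was not tested.

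Line differences for 4 Gy gave 3 calls with DESeq2 (1.78% of all genes) and 3 without the count filter. They gave 1 with the block (1.07%) and 1 with the block and only the libraries compared (0.183%). With GSK-J1 the counts were 3 with DESeq2 (1.62%), 3 without the count filter and 1 with the block (0.996%). Leaving out 1 library gave 30 to 32 calls at baseline, 12 to 13 for 4 Gy in SAS and 3 to 10 in Cal33, 7 to 10 and 4 to 13 with GSK-J1, 0 for GSK-J1 alone, and 0 to 1 and 0 to 2 for the line differences of 4 Gy without and with GSK-J1. For fits that left out 1 library, here and above, and for those without the count filter, the share of all genes is not given. Their counts cannot tell a change of keratins from one in all calls.

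KRT13 in SAS turned under GSK-J1, as given above. Of the other uncalled effects followed, those with the smallest p, the ones that turned were the line difference of KRT13 for GSK-J1 against sham, -4.89 on the log2 scale, which was 1.24 without the 2 libraries, 1.26 with the block as well and -5.51 to 1.24 when 1 library was left out (1.24 without replicate 1 of SAS GSK-J1), and KRT84 in Cal33 for GSK-J1 against sham, 1.56, which was -0.01 to 2.52 (-0.01 without replicate 1 of GSK-J1). Where the numbers pair the libraries, the replicate block changed no other count of calls by over 1.5 times. Between the sham groups and for Cal33 comparisons with sham the numbers do not pair the libraries. There the block gave 34 keratins between the sham groups in place of 33 (57.5% of all genes). For 4 Gy in Cal33 it gave 13 in place of 12 (9.91% of all genes). Class sums recomputed from counts per kilobase are the deposited TPM by construction and test nothing; without strand they moved by less than 1 SD in 80 of 96 cases. Fold changes of keratins with a few counts, such as KRT6C, KRT34 and KRT20 in SAS, are limited by depth.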
